A study of Mus musculus with 34 samples.

Results

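Potassium channels are described here across the 34 arrays of a mouse spinal cord injury study. The set holds every gene whose symbol in the probe annotation starts with Kcn, 1 or more letters and a number, except Kcnj10, which is counted with the potassium transporters. The pattern matched 83 of 18193 genes, each represented by the probe set with the highest mean over the arrays. Of these, 52 read above log2 4 on at least 4 arrays and were tested among 11993 tested genes. Values under log2 4 are here called not well above background. The other 31 read above that limit on at most 2 arrays. Just outside the limit lay Kcnh5, above it on 2 arrays, and just inside lay Kcnip2 and Kcnf1, above it on 7 arrays each. The tested genes comprise 5 Kv1 genes, 3 Kv beta genes, 3 Kv3 genes, 3 Kv4 genes, 4 KChIP genes, 4 silent Kv genes, 3 genes of the EAG, ERG and ELK group, 2 Kv7 genes, 2 KCNE genes, 8 inward rectifiers, 6 K2P channels, 4 BK genes, 2 SK and IK genes and 2 sodium-activated channels. The remaining member, Kcnq1ot1, is a non-coding RNA that the pattern takes in.

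Potassium channels let potassium leave the cell and so set its resting potential, end its action potentials and control how often it fires. Voltage-gated channels (Kv) open on depolarisation, calcium-activated channels (BK, SK and IK) and sodium-activated channels open when those ions enter, and inward rectifiers (Kir) and the leak channels with a double pore domain (K2P) carry current near rest. In the spinal cord, Kv1 channels lie beside the nodes of Ranvier of myelinated axons, Kv3 channels allow neurons to fire fast, and glial Kir channels take up potassium from around active neurons.

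The arrays are Affymetrix arrays of spinal cord RNA from wild-type mice (WT) and from mice null for trkB.T1 (knockout, KO), the truncated form of the receptor trkB, which Ntrk2 encodes. The mice had sham surgery with the cord left intact, or a spinal cord injury (SCI) 1, 3 or 7 days before the tissue was taken. WT cord gave 4 sham arrays, 5 of day 1, 4 of day 3 and 4 of day 7. KO cord gave 4 sham arrays, 4 of day 1, 5 of day 3 and 4 of day 7. Strain, age, the cord level taken and the way of injury are not given in the sources used here. Nothing in the labels ties an array to its own animal, so p-values measure the spread between these samples. The 3 injury comparisons of a genotype share its sham arrays.

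Some libraries stand apart. The library labelled KO sham replicate 2 goes against its label. Its Ntrk2 probe sets that read low in the KO groups stood at 8.59 and 9.46, where no other KO array was above 2.83 and 4.94 and WT arrays ran from 8.65 to 9.92 and from 10.01 to 10.86. It was kept under its label, and every comparison with KO sham cord rests partly on it. Without it, 24, 41 and 33 channel genes passed in KO cord at days 1, 3 and 7, against 28, 43 and 35 with it. The mean of 12 neuron markers lay from 12.27 to 12.41 in sham cord and was 10.59 and 10.77 in KO day 3 replicates 3 and 4, against 11.19 to 11.73 on all other day 3 arrays. The mean of 6 skeletal muscle genes reached 13.37 in KO day 3 replicate 3. It lay from 7.35 to 10.53 in KO sham cord, from 3.25 to 8.82 in WT sham cord, and averaged 4.37 and 4.32 in KO cord at days 1 and 7. The mean of 6 caudal Hox genes, which mark the level of the cord, lay from 6.46 to 7.26 in WT sham cord and from 8.59 to 8.91 in KO sham cord, with no overlap. The injured groups averaged from 7.65 to 8.53. In WT cord the arrays ran from 7.76 to 8.76 at day 1 and from 7.65 to 8.17 at day 7, all above sham. In KO cord they ran from 6.70 to 8.25 at day 3 and from 8.20 to 8.48 at day 7, all below sham. WT day 3 and KO day 1 arrays overlapped with sham.

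Most channel genes were lower after injury. In WT cord, 30 of 52 fell and 2 rose at day 1, 40 fell and 4 rose at day 3, and 38 fell and 3 rose at day 7. Of all tested genes, 32.5% were lower and 27.1% higher at day 1, 37.4% lower and 29.5% higher at day 3, then 33.3% lower and 25.8% higher at day 7. In KO cord, 25 fell and 3 rose at day 1, 40 fell and 3 rose at day 3, and 32 fell and 3 rose at day 7. The shares of all genes there were 27.3% lower and 23.7% higher at day 1, 38.8% lower and 30.9% higher at day 3, then 31% lower and 23.5% higher at day 7. The threshold is an adjusted p of 0.05 in limma over all tested genes.

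The median log2 difference of the 52 genes was -0.61, -0.96 and -0.82 at days 1, 3 and 7 in WT cord and -0.51, -1.10 and -0.63 in KO cord. The median of all tested genes lay between -0.06 and -0.05 in every one of these comparisons. At least 2-fold lower and past the threshold were 14, 24 and 18 channel genes in WT cord and 7, 28 and 5 in KO cord, in order of time. By the same rule 4.06%, 7.65% and 4.03% of all tested genes were lower in WT cord and 3.08%, 9.84% and 2.06% in KO cord. Among the 47 members whose mean was above log2 4, 27, 37 and 35 fell in WT cord and 23, 37 and 29 in KO cord. Over the 6 injury comparisons, 43 genes fell in at least 1 and rose in none, and 5 rose in at least 1 and fell in none. The other 4, Kcnd1, Kcnf1, Kcnj11 and Kcnj13, passed in none. By the chosen probe sets, the 16 genes that fell in all 6 were Kcna2, Kcnc1, Kcnc2, Kcnc4, Kcnd3, Kcnh8, Kcnip2, Kcnip4, Kcnj3, Kcnk1, Kcnmb2, Kcnq3, Kcnq5, Kcns2, Kcns3 and Kcnu1. Of these, Kcnip2 was above log2 4 on sham arrays alone, and Kcnh8 on sham arrays and 1 KO day 7 array. Both entered the test through the sham groups, where they are high.

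**Figure D1:**
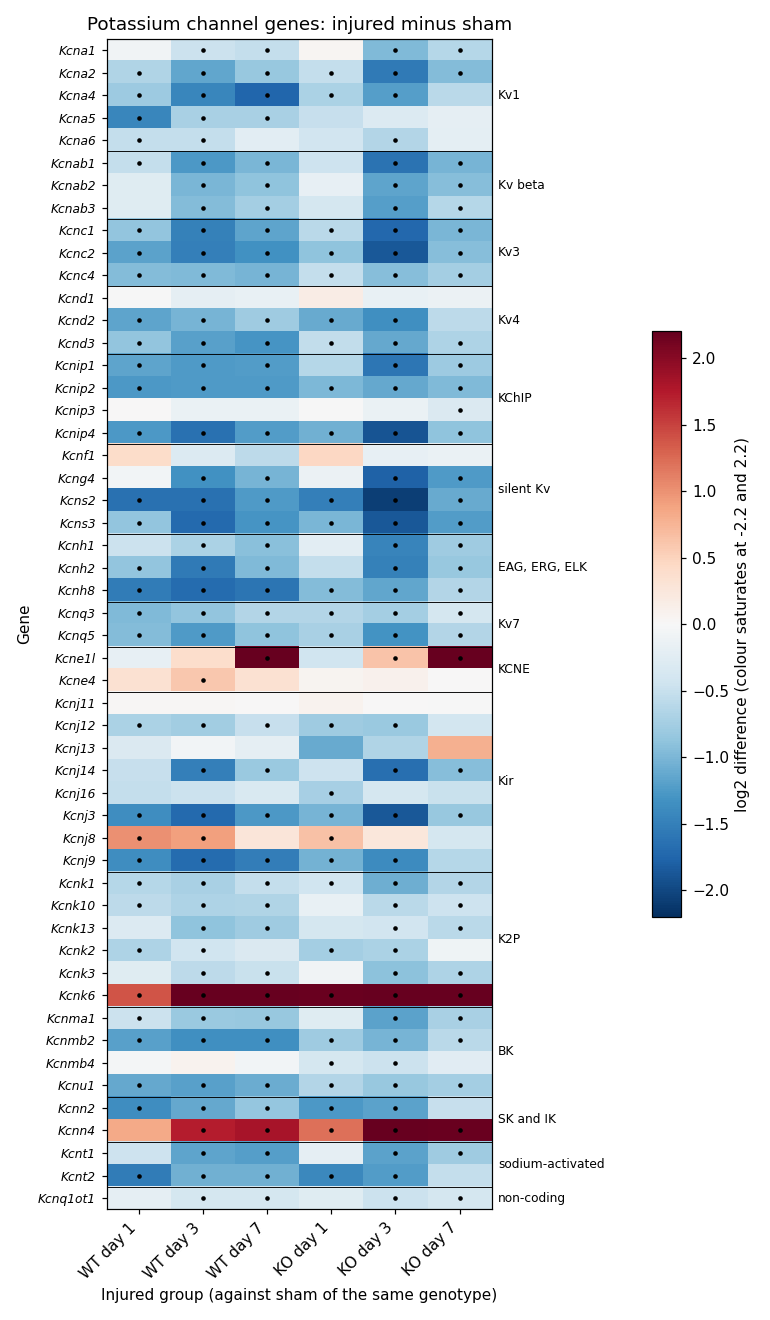
Log2 differences of the 52 tested potassium channel genes (rows, grouped by channel family) between each injured group and the sham group of its genotype (columns); blue is lower and red higher after injury, and a black dot marks an adjusted p under 0.05. Blue rows fill most families, while Kcnk6, Kcnn4, Kcne1l and Kcnj8 stand out in red.

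Markers of cell types moved in the same samples. All 12 neuron markers fell in WT cord at days 3 and 7 and in KO cord at day 3, against 8 in WT and 3 in KO cord at day 1 and 10 in KO cord at day 7. Their median differences were -0.40, -0.90 and -0.76 in WT cord and -0.29, -1.13 and -0.63 in KO cord. Of 9 microglia and macrophage markers, 8, 9 and 9 rose in WT cord and 6, 9 and 9 in KO cord, and the mean of the list lay from 6.90 to 7.54 in sham cord and from 11.31 to 11.73 at day 7. Of 7 oligodendrocyte markers, 4, 7 and 5 fell in either genotype at days 1, 3 and 7. Of 7 astrocyte markers, 2 rose and 5 fell in WT cord at day 1, and 3 rose and none fell at day 7. Endothelial and pericyte markers rose in 6, 7 and 3 of 7 cases in WT cord and in 2, 5 and 1 in KO cord. Of 5 oligodendrocyte precursor markers, 1, 2 and 2 rose in both genotypes. In WT cord 1 fell at each time, Gpr17 (-2.45 ± 0.75), Olig2 (-0.40 ± 0.16) and Olig1 (-0.23 ± 0.09) in turn, and in KO cord Gpr17 fell at day 1 (-2.25 ± 0.79) and Olig1 at day 7 (-0.34 ± 0.09). Both Schwann cell markers tested rose in WT cord at each time, and 1 did in KO cord. Of 3 neutrophil markers tested, 1 rose at days 3 and 7 in each genotype, and no T cell marker was well above background. In bulk tissue, fewer cells of a type and less RNA per cell cannot be told apart, and the part of these shifts in the channel results was not tested.

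**Figure D2:**
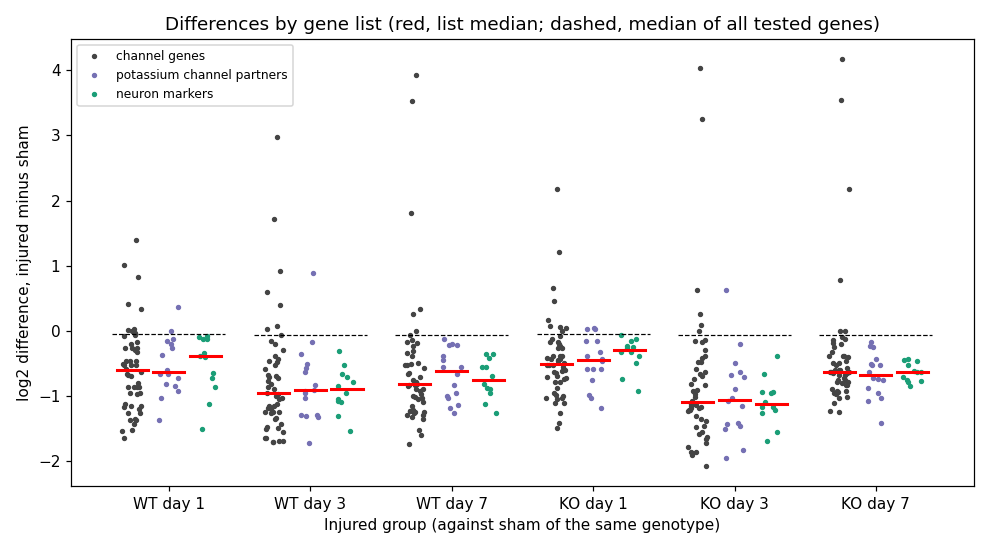
Log2 differences, injured minus sham, of the 52 channel genes, 16 tested partner genes of potassium channels and 12 neuron markers (points) in each injured group; red bars are list medians and dashed lines the median of all tested genes. In KO cord at day 3 the medians are -1.10, -1.06 and -1.13. At day 1 they are -0.61, -0.63 and -0.40 in WT cord and -0.51, -0.46 and -0.29 in KO cord.

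Kcnk6, which encodes the K2P channel TWIK2, rose most steadily. It read 4.17, 4.73, 5.12 and 5.13 on the WT sham arrays, 6.22, 5.95, 5.64, 6.39 and 6.69 at day 1, 8.01, 7.50, 7.63 and 7.88 at day 3, then 8.35, 8.33, 8.22 and 8.37 at day 7. On the KO arrays it read 4.34, 3.91, 3.90 and 4.51 in sham cord, 6.64, 6.44, 6.02 and 6.23 at day 1, 8.28, 8.01, 8.12, 8.64 and 7.92 at day 3, then 8.43, 8.25, 8.41 and 8.24 at day 7. Every injured array lay above every sham array, and every day 3 or 7 array above every day 1 array. The log2 differences in WT cord were 1.39 ± 0.19, 2.97 ± 0.20 and 3.53 ± 0.20, or 2.62-fold, 7.83-fold and 11.6-fold (values after ± on a difference are standard errors). In KO cord they were 2.17 ± 0.20, 4.03 ± 0.19 and 4.17 ± 0.20. Since 2 KO sham arrays were not well above background, these are at least 4.36-fold, 15.8-fold and 17.4-fold, with values under log2 4 set to 4. It was the single member that rose in all 6 injury comparisons. The microglia and macrophage marker Cd68, a lysosomal protein, differed by 3.79 ± 0.27, 5.81 ± 0.29 and 6.62 ± 0.29 in WT cord over the same days. Those are the highest values of the 9 listed markers, whose medians were 1.51, 2.98 and 3.69 and whose lowest were -0.23, 1.31 and 2.03. The part of these cells in the course of Kcnk6 was not tested.

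Kcnn4, the intermediate-conductance calcium-activated channel (IK), also rose, from sham arrays of which 2 in WT and 0 in KO cord were above log2 4. It read 3.49, 4.20, 3.18 and 4.38 on the WT sham arrays, 4.54, 4.54, 4.32, 4.89 and 4.90 at day 1, 6.02, 4.21, 6.28 and 5.61 at day 3, then 5.46, 4.85, 5.78 and 6.39 at day 7. On the KO arrays it read 2.99, 3.21, 3.21 and 3.21 in sham cord, 4.37, 4.54, 3.99 and 4.54 at day 1, 6.63, 5.57, 7.38, 6.95 and 5.53 at day 3, then 5.87, 4.96, 5.62 and 4.89 at day 7. In KO cord no injured array reached down to the sham arrays, while WT day 3 replicate 2, at 4.21, lay inside the WT sham range. The WT differences were 0.83 ± 0.37 at day 1, which did not pass (adjusted p = 0.0561), 1.72 ± 0.39 at day 3 (at least 2.61-fold) and 1.81 ± 0.39 at day 7 (at least 2.78-fold). The KO differences were 1.21 ± 0.39, 3.25 ± 0.37 and 2.18 ± 0.39, or at least 1.29-fold, 5.31-fold and 2.52-fold. The KO day 1 call was lost when values under log2 4 were set to 4 (0.36, adjusted p = 0.434).

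Kcne1l, a regulatory subunit of the KCNE family that modulates Kv channels, had a signal that belonged to day 7. It read 4.28, 3.93, 4.28 and 4.45 on the WT sham arrays, 4.28, 3.77, 3.66, 4.28 and 4.28 at day 1, 4.95, 3.18, 4.82 and 5.54 at day 3, then 8.05, 8.40, 8.08 and 8.10 at day 7. On the KO arrays it read 4.27, 4.40, 4.48 and 4.29 in sham cord, 3.81, 3.87, 4.15 and 3.87 at day 1, 4.53, 5.31, 4.62, 5.11 and 5.32 at day 3, then 7.94, 8.0, 7.69 and 7.99 at day 7. The lowest day 7 array, at 7.69, stood above the highest of all other arrays, at 5.54. The day 7 differences from sham were 3.93 ± 0.28 in WT cord (at least 15-fold) and 3.54 ± 0.28 in KO cord (11.7-fold). Day 7 exceeded day 3 by 3.23 ± 0.19 over both genotypes. A rise of 0.62 ± 0.27 in KO cord at day 3 also passed (adjusted p = 0.0404), but was lost when any 1 of KO day 3 replicates 2, 4 and 5 or of the 4 KO sham arrays was left out (adjusted p from 0.0506 to 0.0926).

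Kcnj8, the pore subunit Kir6.1 of ATP-sensitive channels of vessel-wall cells, rose early. It read 5.82, 5.63, 5.53 and 5.87 on the WT sham arrays, 6.88, 6.36, 6.63, 6.79 and 6.97 at day 1, 6.54, 7.18, 6.51 and 6.25 at day 3, then 6.08, 5.30, 5.89 and 6.60 at day 7. On the KO arrays it read 6.39, 6.23, 5.86 and 6.14 in sham cord, 6.84, 6.78, 6.76 and 6.83 at day 1, 6.02, 6.67, 6.48, 6.51 and 6.32 at day 3, then 5.86, 5.79, 6.09 and 5.30 at day 7. Groups did not overlap with sham at day 1 in either genotype or at day 3 in WT cord, and overlapped elsewhere. The differences were 1.01 ± 0.20 and 0.91 ± 0.21 at days 1 and 3 in WT cord and 0.65 ± 0.21 at day 1 in KO cord. The level then fell by 0.65 from day 3 to day 7 (SE 0.14, both genotypes). Its sulfonylurea receptor partner Abcc9 rose by 0.89 ± 0.29 in WT and 0.62 ± 0.28 in KO cord at day 3. All 7 endothelial and pericyte markers fell from day 3 to day 7, with a median of -1.45, and their part in the course of Kcnj8 was not tested. The KO day 1 call was lost with the skeletal muscle mean as a covariate (0.47, adjusted p = 0.0882).

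Kcne4, another KCNE subunit, passed in WT cord at day 3 alone, at 0.60 ± 0.18 (adjusted p = 0.00394). The WT day 3 arrays read 4.29, 5.56, 4.73 and 4.45 and overlapped with the sham arrays, at 3.79, 4.12, 4.48 and 4.23. The array at 5.56 is WT day 3 replicate 2, without which the difference was 0.34 (adjusted p = 0.0375 in limma). It was also the lowest WT day 3 array in Kcnn2, Kcnj16, Kcnk13, Kcnn4 and Kcne1l. In KO cord, Kcne4 differed from sham by at most 0.09 ± 0.17 in either direction.

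**Figure D3:**
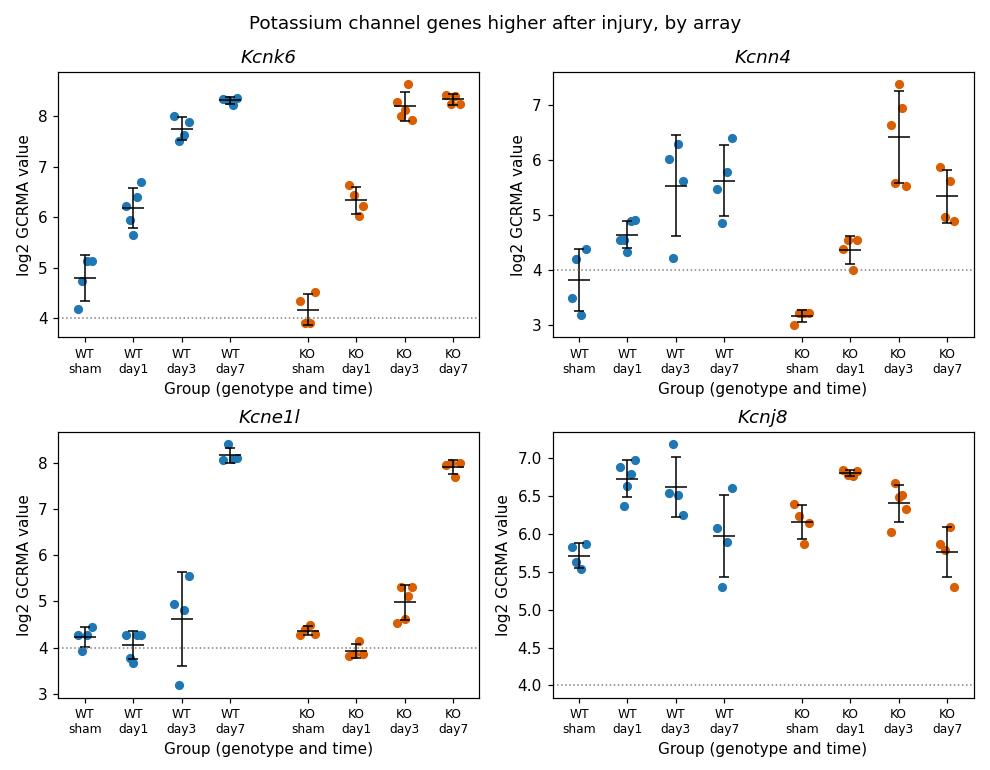
Log2 GCRMA values of Kcnk6, Kcnn4, Kcne1l and Kcnj8 on every array (points) by genotype and time, with group mean and SD (black); the dotted line is the limit of log2 4. Kcnk6 climbs to between 8.22 and 8.43 at day 7, Kcne1l reads 5.54 at most until day 3 and reaches 7.69 to 8.40 at day 7, and Kcnj8 is highest at days 1 and 3.

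Promoter windows of the risers Kcnn4, Kcne1l and Kcnj8 from RefSeq's table (build GRCm38.p6, 250 bases before to 50 after the start of transcription) are printed to show the sequence beside genes that moved against the trend. That of Kcnc1 is given as a gene that fell, and Kcne4 is not printed. For each gene the first window listed is shown. A gene can have further windows, and the motif counts per gene are for the printed one. They are Kcnn4 at chr7:24370013-24370312 on the plus strand, Kcne1l at chrX:142306149-142306448 on the minus strand, Kcnj8 at chr6:142571565-142571864 on the minus strand, and Kcnc1 at chr7:46396218-46396517 on the plus strand. Capitals mark matches, on either strand, of the AP-1 motif TGANTCA, the PU.1 motif GAGGAAGT, the E-box CACGTG and the GC box GGGCGG.
Kcnn4: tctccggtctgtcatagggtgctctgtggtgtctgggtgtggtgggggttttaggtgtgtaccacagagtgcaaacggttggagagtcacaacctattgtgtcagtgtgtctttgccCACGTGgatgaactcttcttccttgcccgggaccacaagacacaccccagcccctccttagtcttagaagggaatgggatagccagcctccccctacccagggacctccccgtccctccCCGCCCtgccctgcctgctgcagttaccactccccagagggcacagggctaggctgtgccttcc
Kcne1l: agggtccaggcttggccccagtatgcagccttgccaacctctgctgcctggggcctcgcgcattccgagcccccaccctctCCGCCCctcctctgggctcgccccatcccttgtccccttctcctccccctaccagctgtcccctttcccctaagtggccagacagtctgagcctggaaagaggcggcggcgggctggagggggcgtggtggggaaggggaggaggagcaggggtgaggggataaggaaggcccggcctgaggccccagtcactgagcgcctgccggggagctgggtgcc
Kcnj8: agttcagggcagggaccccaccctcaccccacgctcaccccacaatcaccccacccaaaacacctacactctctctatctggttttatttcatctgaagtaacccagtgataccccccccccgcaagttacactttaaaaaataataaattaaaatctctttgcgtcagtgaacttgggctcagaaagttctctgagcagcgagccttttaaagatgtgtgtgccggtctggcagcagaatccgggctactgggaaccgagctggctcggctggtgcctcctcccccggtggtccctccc
Kcnc1: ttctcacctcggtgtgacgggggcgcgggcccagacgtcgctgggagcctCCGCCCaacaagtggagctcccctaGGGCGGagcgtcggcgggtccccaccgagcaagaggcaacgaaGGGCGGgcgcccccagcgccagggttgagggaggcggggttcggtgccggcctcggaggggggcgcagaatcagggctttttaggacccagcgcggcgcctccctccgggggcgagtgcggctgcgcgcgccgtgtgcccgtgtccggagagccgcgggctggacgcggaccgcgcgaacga
Kcnn4 holds 1 E-box and 1 GC box, Kcne1l holds 1 GC box, Kcnc1 holds 3 GC boxes, and the Kcnj8 window holds none of these letters. The GC content is 59.7%, 69.7%, 53.3% and 74.7% for Kcnn4, Kcne1l, Kcnj8 and Kcnc1. Windows were found for 40 of the 52 tested genes, 61 windows in all, and not for Kcnk6. The AP-1 letters occur in 4.92% of them against 7.81% of all 32851 windows, the E-box in 6.56% against 7.15%, the GC box in 41% against 35.7%, and the PU.1 letters in 0 of 61 against 3.2%. A match of letters is a description and not a site.

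Among the Kv1 genes, which form the delayed rectifiers and axonal channels of the Shaker family, 4, 5 and 4 of 5 fell in WT cord at days 1, 3 and 7, and 2, 4 and 2 in KO cord. These counts hold for the chosen probe sets. That of Kcna6 did not pass at day 7, at -0.23 in WT and -0.21 in KO cord. Its other probe set fell there, at -1.06 ± 0.18 and -1.14 ± 0.18. In WT cord at day 1 the chosen one passed (-0.53) and the other did not (-0.32 ± 0.17). Kcna2 (Kv1.2) fell in all 6 comparisons, from 12.02 ± 0.08 (SD, n = 4) in WT sham cord to 11.35 ± 0.32 (n = 5), 10.87 ± 0.33 and 11.17 ± 0.15 (n = 4 each). Its partner in axonal channels, Kcna1 (Kv1.1), did not pass at day 1 in either genotype, at -0.08 ± 0.13 and 0.04 ± 0.14, and fell at day 3, at -0.48 ± 0.14 in WT and -0.97 ± 0.13 in KO cord. Kcna1 averaged 13.01 ± 0.05 in WT sham cord, then 12.93 ± 0.16, 12.53 ± 0.18 and 12.49 ± 0.09, and 13.11 ± 0.07 in KO sham cord, then 13.15 ± 0.17, 12.13 ± 0.40 and 12.47 ± 0.01 (group means at days 1, 3 and 7 follow each sham mean here and in what comes after, with SDs over 4 arrays, or 5 in WT cord at day 1 and KO cord at day 3). Kcna4 (Kv1.4), which carries a fast inactivating current, averaged 7.05 ± 0.28 in WT sham cord, then 6.25 ± 0.24, 5.62 ± 0.16 and 5.31 ± 0.65, and 6.70 ± 0.21 in KO sham cord, then 6.01 ± 0.29, 5.49 ± 0.73 and 6.10 ± 0.17. No injured array overlapped with the sham arrays of its genotype. Kcna4 differed by -0.80 ± 0.27, -1.43 ± 0.28 and -1.74 ± 0.28 in WT cord. In KO cord its values were -0.69 ± 0.28, -1.21 ± 0.27 and -0.60 ± 0.28, of which the last did not pass (adjusted p = 0.0722). The WT day 7 mean held 1 low array, at 4.38, against 5.38 to 5.84 on the others.

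Kcna5 (Kv1.5) was low early in WT cord. It read 5.44, 5.22, 5.58 and 5.58 on the WT sham arrays, 3.78, 4.78, 4.72, 3.16 and 3.70 at day 1, 4.73, 4.34, 4.68 and 5.22 at day 3, then 4.65, 4.53, 4.98 and 4.80 at day 7. The KO arrays read 5.89, 5.01, 5.36 and 5.35 in sham cord, 4.86, 5.31, 4.58 and 4.88 at day 1, 4.86, 5.64, 5.01, 4.81 and 5.20 at day 3, then 5.04, 5.10, 5.32 and 5.40 at day 7. In WT cord the day 1 and day 7 arrays lay below all sham arrays and the highest day 3 array met the lowest sham array at 5.22. In KO cord the groups overlapped at each time. The WT differences were -1.43 ± 0.25 (at least 2.23-fold lower), -0.71 ± 0.26 and -0.71 ± 0.26, and the KO differences, -0.50 ± 0.26, -0.30 ± 0.25 and -0.19 ± 0.26, did not pass.

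The Kv beta genes, cytoplasmic subunits bound to Kv1 channels, had their lowest group means at day 3 in both genotypes by their chosen probe sets. By these, Kcnab1, Kcnab2 and Kcnab3 all fell at days 3 and 7 in both genotypes, and at day 1 Kcnab1 alone passed, in WT cord, at -0.52 ± 0.23. The other probe set of Kcnab2 fell at day 1 already, at -0.51 ± 0.17 in WT (adjusted p = 0.0125) and -0.74 ± 0.18 in KO cord (adjusted p = 0.00136), and differed between days 3 and 1 by -0.16 ± 0.12, which did not pass. The other probe set of Kcnab1 fell at day 1 in WT cord, at -0.96 ± 0.33, and in KO cord, at -0.91 ± 0.35 (adjusted p = 0.0336). At day 3 the differences ran from -1.26 to -0.95 in WT and from -1.63 to -1.16 in KO cord. Kcnab1 averaged 10.28 ± 0.09 in WT sham cord, then 9.76 ± 0.26, 9.02 ± 0.44 and 9.29 ± 0.14, and 10.41 ± 0.05 in KO sham cord, then 9.95 ± 0.40, 8.78 ± 0.67 and 9.38 ± 0.08. Its injured arrays did not overlap with sham in any of these groups. Kcnab3 read exactly 5.60 on 9 arrays.

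The Kv3 genes, which let neurons fire at high rates, fell in all 6 comparisons by the chosen probe sets of Kcnc1, Kcnc2 and Kcnc4. Kcnc1 (Kv3.1) read 11.92, 11.95, 11.84 and 11.73 on the WT sham arrays, 10.94, 10.95, 11.23, 10.62 and 11.27 at day 1, 10.46, 9.96, 10.39 and 10.69 at day 3, then 10.75, 10.85, 10.54 and 10.68 at day 7. The KO arrays read 11.86, 12, 11.88 and 11.87 in sham cord, 11, 11.42, 11.39 and 11.41 at day 1, 10.70, 10.76, 9.25, 9.43 and 10.75 at day 3, then 10.90, 10.86, 10.96 and 10.86 at day 7. No injured array reached the sham range, and the lowest readings, 9.25 and 9.43, came from both KO day 3 arrays that were lowest in neuron markers. The differences were -0.86 ± 0.22, -1.48 ± 0.24 and -1.16 ± 0.24 in WT cord and -0.60 ± 0.24, -1.72 ± 0.22 and -1.01 ± 0.24 in KO cord. Another Kcnc1 probe set passed in WT cord at day 1 and KO cord at day 3 alone. It read -0.30 ± 0.24 in WT cord at day 3 and -0.36 ± 0.24 at day 7. A further probe set missed in KO cord at day 1 alone, at -0.57 ± 0.24 (adjusted p = 0.0521 in limma). Kcnc2 (Kv3.2) averaged 9.79 ± 0.13 in WT sham cord, then 8.62 ± 0.38, 8.29 ± 0.21 and 8.46 ± 0.20, and 9.70 ± 0.07 in KO sham cord, then 8.82 ± 0.23, 7.83 ± 0.92 and 8.76 ± 0.07. As in Kcnc1, all injured arrays lay below the sham arrays. Kcnc2 differed by -1.17 ± 0.27, -1.50 ± 0.28 and -1.33 ± 0.28 in WT cord and by -0.88 ± 0.28, -1.86 ± 0.27 and -0.94 ± 0.28 in KO cord. Kcnc4 (Kv3.4) averaged 7.43 ± 0.07 in WT sham cord, then 6.48 ± 0.15, 6.46 ± 0.21 and 6.41 ± 0.08, and 7.30 ± 0.20 in KO sham cord, then 6.79 ± 0.19, 6.38 ± 0.40 and 6.55 ± 0.10. It differed from sham in WT cord by -0.95 ± 0.14, -0.97 ± 0.15 and -1.02 ± 0.15.

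The Kv4 genes carry the A-type current of dendrites, and KChIP proteins (Kcnip1 to Kcnip4) bind and regulate them. Kcnd2 (Kv4.2) fell by day 1, with 10.39 ± 0.08 (SD, n = 4) in WT sham cord, then 9.23 ± 0.42 (n = 5), 9.36 ± 0.43 (n = 4) and 9.60 ± 0.14 (n = 4) on the injury days. In KO cord it went from 10.44 ± 0.03 to 9.33 ± 0.24, 9.09 ± 0.77 and 9.86 ± 0.04, and the day 7 difference of -0.57 ± 0.26 did not pass. Another Kcnd2 probe set passed there, at -0.67 ± 0.28 (adjusted p = 0.0469 in limma), and a further one did not, at -0.60 ± 0.28. Kcnd3 (Kv4.3) fell in all 6 comparisons, with differences from -1.29 to -0.55. Kcnip4 averaged 9.84 ± 0.06 in WT sham cord, then 8.58 ± 0.27, 8.18 ± 0.15 and 8.61 ± 0.21, and 9.76 ± 0.02 in KO sham cord, then 7.86 ± 0.65 at day 3 between 8.72 ± 0.23 at day 1 and 8.88 ± 0.09 at day 7. It fell in all 6 with no overlap, at -1.26 ± 0.20, -1.65 ± 0.21 and -1.23 ± 0.21 in WT cord and at -1.05 ± 0.21, -1.90 ± 0.20 and -0.89 ± 0.21 in KO cord. By its chosen probe set, Kcnip1 fell in all but KO cord at day 1, at -0.62 ± 0.32 there, and a further probe set gave the same calls. Another Kcnip1 probe set passed in WT cord at days 1 and 7 alone. It read -0.71 ± 0.37 in WT and -0.68 ± 0.35 in KO cord at day 3, and 0.02 ± 0.37 in KO cord at day 1. Kcnip2 fell in all 6 from sham arrays between 3.71 and 4.69. It was above log2 4 on 7 arrays only, 4 of WT sham and 3 of KO sham cord. It thus passed the filter through sham cord alone, and its falls are at least 1.12-fold to 1.22-fold. Kcnd1 passed in no injury comparison and Kcnip3 in 1, but these probe sets took the values 4.83 and 5.01 on 15 and 16 arrays, so signal over background limits what they could show.

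The silent Kv subunits form no channel alone and modify Kv2 channels. Kcns2 held the largest falls at day 1 in both genotypes and in KO cord at day 3. It read 5.91, 6.32, 6.58 and 6.45 on the WT sham arrays, 4.59, 5.0, 4.97, 3.79 and 5.07 at day 1, 4.80, 4.80, 4.33 and 4.80 at day 3, then 4.80, 5.29, 5.05 and 5.16 at day 7. The KO arrays read 6.34, 6.52, 6.16 and 6.32 in sham cord, 4.96, 4.97, 4.60 and 4.80 at day 1, 4.83, 4.83, 2.79, 4.11 and 4.77 at day 3, then 5.18, 5.35, 5.35 and 5.0 at day 7. Every injured array lay below every sham array. The WT differences were -1.64 ± 0.28 (at least 3.02-fold lower), -1.64 ± 0.30 and -1.24 ± 0.30, and the KO differences -1.50 ± 0.30, -2.07 ± 0.28 (at least 3.54-fold lower) and -1.11 ± 0.30. Kcns3 averaged 6.99 ± 0.18 in WT sham cord, then 6.12 ± 0.18, 5.28 ± 0.51 and 5.70 ± 0.29, and 7.06 ± 0.09 in KO sham cord, then 6.06 ± 0.25, 5.19 ± 0.54 and 5.82 ± 0.09. It fell in all 6 with no overlap, at -0.87 ± 0.21, -1.71 ± 0.22 and -1.29 ± 0.22 in WT cord and at -1.0 ± 0.22, -1.87 ± 0.21 and -1.23 ± 0.22 in KO cord.

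Kcng4 (Kv6.4), which is known from motor neurons of the fast type, had another course. It read 7.68, 7.54, 7.22 and 7.40 on the WT sham arrays, 7.77, 6.42, 7.86, 7.27 and 7.70 at day 1, 6.38, 5.64, 6.16 and 6.29 at day 3, then 6.58, 6.44, 6.26 and 6.42 at day 7. The KO arrays read 7.55, 7.81, 7.64 and 7.58 in sham cord, 7.15, 7.35, 7.91 and 7.64 at day 1, 6.28, 6.09, 4.96, 5.05 and 6.94 at day 3, then 6.62, 6.63, 6.24 and 6.12 at day 7. Day 1 arrays overlapped with sham, and no day 3 or day 7 array did. The differences were -0.06 ± 0.29 and -0.13 ± 0.31 at day 1, which did not pass, -1.34 ± 0.31 and -1.78 ± 0.29 at day 3, and -1.03 ± 0.31 and -1.24 ± 0.31 at day 7, in WT and KO cord. Kcnf1 passed in no injury comparison, but it was above log2 4 on 7 arrays only.

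Of the EAG, ERG and ELK group, whose ERG channels oppose repeated firing, all 3 tested genes fell at days 3 and 7 in both genotypes. Kcnh2 (ERG1) stood at 7.70 ± 0.02 (SD, n = 4) in WT sham cord, then 6.84 ± 0.22 (n = 5), 6.13 ± 0.39 (n = 4) and 6.73 ± 0.24 (n = 4) on the injury days. Kcnh1 (EAG1) averaged 6.61 ± 0.11 in WT sham cord, then 6.14 ± 0.25, 5.91 ± 0.29 and 5.69 ± 0.16, and 6.67 ± 0.17 in KO sham cord, then 6.43 ± 0.08, 5.20 ± 0.95 and 5.89 ± 0.05. It did not pass at day 1 in either genotype and fell at day 3, at -0.70 ± 0.28 in WT and -1.46 ± 0.26 in KO cord. Kcnh8 (ELK1) fell in all 6. It averaged 5.14 ± 0.10 in WT sham cord, then 3.60 ± 0.26, 3.44 ± 0.40 and 3.55 ± 0.19, and 4.58 ± 0.26 in KO sham cord, then 3.63 ± 0.16, 3.44 ± 0.52 and 3.94 ± 0.24. It read from 5.02 to 5.25 in WT sham cord and was not well above background on any injured WT array, which is at least 2.21-fold lower at each time. In KO cord, sham arrays read from 4.33 to 4.82 and the falls were at least 1.49-fold, 1.49-fold and 1.42-fold. The Kv7 genes carry the M-current, a brake on firing, and both fell in all 6 comparisons. Kcnq3 differed by -0.97 ± 0.13, -0.86 ± 0.14 and -0.65 ± 0.14 in WT cord and by -0.65 ± 0.14, -0.74 ± 0.13 and -0.39 ± 0.14 in KO cord. Kcnq5 ranged from -1.31 to -0.65 over the 6.

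The inward rectifiers moved in different ways. Kcnj3 (Kir3.1, GIRK1) and Kcnj9 (Kir3.3, GIRK3), which G protein-coupled receptors open, fell. Kcnj3 read 9.58, 9.57, 9.50 and 9.59 on the WT sham arrays, 7.86, 8.35, 8.53, 7.57 and 8.64 at day 1, 8.04, 7.30, 7.78 and 8.28 at day 3, then 8.25, 8.58, 8.24 and 8.14 at day 7. The KO arrays read 9.60, 9.57, 9.52 and 9.63 in sham cord, 8.06, 8.55, 8.74 and 8.87 at day 1, 8.27, 8.32, 6.62, 6.95 and 8.48 at day 3, then 8.73, 8.85, 8.68 and 8.73 at day 7. The sham arrays of both genotypes ran from 9.50 to 9.63 and lay above every injured array. The differences were -1.37 ± 0.28, -1.71 ± 0.30 and -1.26 ± 0.30 in WT cord and -1.03 ± 0.30, -1.86 ± 0.28 and -0.83 ± 0.30 in KO cord. Kcnj9 averaged 6.15 ± 0.28 in WT sham cord, then 4.80 ± 0.51, 4.46 ± 0.83 and 4.64 ± 0.77, and 5.86 ± 0.12 in KO sham cord, then 4.82 ± 0.35, 4.48 ± 0.92 and 5.23 ± 0.24. It fell in WT cord at each time, at least 2.54-fold, 2.97-fold and 2.62-fold, and in KO cord at days 1 and 3, with -0.63 ± 0.40 at day 7, which did not pass. Its other probe set fell in all 6, by less, at -0.42 ± 0.07 in KO cord at day 7 (adjusted p = 1.46e-05).

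Kcnj14 (Kir2.4), known from motor neurons, averaged 6.69 ± 0.20 in WT sham cord, then 6.18 ± 0.56, 5.18 ± 0.70 and 5.88 ± 0.51, and 6.93 ± 0.22 in KO sham cord, then 6.48 ± 0.47, 5.27 ± 0.65 and 6.0 ± 0.31. The day 1 arrays overlapped with sham and the later ones did not. It fell at days 3 and 7 in both genotypes, most at day 3 with -1.51 ± 0.34 in WT and -1.66 ± 0.32 in KO cord. Kcnj12 (Kir2.2) fell in all but KO cord at day 7, at -0.41 ± 0.19 there, and read exactly 5.0 on 10 arrays. Kcnj16 (Kir5.1), which pairs with the glial channel Kir4.1, passed in KO cord at day 1 alone, at -0.73 ± 0.25. Its values in WT cord were -0.53 ± 0.23, -0.47 ± 0.25 and -0.34 ± 0.25. WT day 3 replicate 2 read 6.27 against 7.46 to 8.08 on the other WT day 3 arrays. Kcnj11 (Kir6.2) read exactly 7.57 on 25 of 34 arrays and Kcnj13 (Kir7.1) exactly 2.61 on 8, and neither passed.

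Of the K2P channels, which carry leak current and set the resting potential, 5 of 6 tested fell at day 3 in both genotypes and Kcnk6 rose. Kcnk1 (TWIK1) fell in all 6, from 11.05 ± 0.07 (SD, n = 4) in WT sham cord to 10.42 ± 0.26 (n = 5), 10.33 ± 0.15 (n = 4) and 10.53 ± 0.13 (n = 4), and from 11.18 ± 0.06 in KO sham cord to 10.74 ± 0.24, 10.10 ± 0.42 and 10.52 ± 0.06. Kcnk2 (TREK1) averaged 7.70 ± 0.25 in WT sham cord, then 7.02 ± 0.37, 7.26 ± 0.06 and 7.39 ± 0.23, and 7.82 ± 0.12 in KO sham cord, then 7.08 ± 0.10, 7.12 ± 0.25 and 7.73 ± 0.23. It fell at days 1 and 3 in both genotypes and did not pass at day 7, where it differed by -0.31 ± 0.16 in WT and -0.09 ± 0.16 in KO cord. Kcnk3 (TASK1) had no call at day 1 and fell at day 3, at -0.58 ± 0.16 in WT and -0.91 ± 0.15 in KO cord, and at day 7, at -0.49 ± 0.16 and -0.68 ± 0.16. Kcnk13 (THIK1), known from microglia, fell at days 3 and 7 in both genotypes, at -0.89 to -0.42, while all 9 microglia and macrophage markers rose in those comparisons. Its lowest reading, 5.83, was again WT day 3 replicate 2, against 7.00 to 7.28 on the other WT day 3 arrays. Kcnk10 (TREK2) fell in 5 of 6 comparisons but was above log2 4 on 11 arrays only, and its falls are at least 1.22-fold to 1.37-fold.

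Most genes of the BK, SK, IK and sodium-activated families fell too, while Kcnn4 rose and Kcnmb4 passed in KO cord alone. Kcnma1, the BK pore, did not pass in KO cord at day 1 and fell in the other 5 comparisons, at -1.17 ± 0.14 in KO cord at day 3. Of its 4 other probe sets, 3 did not pass at day 3, at -0.51, -0.22 and -0.00 in KO cord and -0.46, 0.09 and -0.17 in WT cord. The remaining probe set fell at day 3, at -1.34 ± 0.23 in KO and -1.43 ± 0.24 in WT cord, and in KO cord at day 1, at -0.60 ± 0.24 (adjusted p = 0.0399). The BK beta subunit Kcnmb2 averaged 5.96 ± 0.33 in WT sham cord, then 4.76 ± 0.37, 4.61 ± 0.23 and 4.61 ± 0.29, and 5.69 ± 0.28 in KO sham cord, then 4.90 ± 0.16, 4.67 ± 0.36 and 5.09 ± 0.12. It fell in all 6, at -1.20 ± 0.19, -1.35 ± 0.20 and -1.35 ± 0.20 in WT cord and at -0.79 ± 0.20, -1.02 ± 0.19 and -0.60 ± 0.20 in KO cord. The other beta subunit, Kcnmb4, averaged 6.92 ± 0.16 in WT sham cord, then 6.88 ± 0.21, 7.00 ± 0.09 and 6.86 ± 0.14, and 7.20 ± 0.15 in KO sham cord, then 6.81 ± 0.04, 6.72 ± 0.26 and 6.95 ± 0.11. It differed in WT cord by -0.04 ± 0.11, 0.08 ± 0.12 and -0.06 ± 0.12, which did not pass, and fell in KO cord at days 1 and 3, at -0.39 ± 0.12 and -0.48 ± 0.11. Kcnu1, a relative of the BK pore known from sperm, averaged 6.02 ± 0.20 in WT sham cord, then 4.91 ± 0.19, 4.83 ± 0.32 and 4.92 ± 0.08, and 5.70 ± 0.14 in KO sham cord, then 5.06 ± 0.18, 4.87 ± 0.26 and 4.96 ± 0.06. It fell in all 6, at -1.20 to -0.64. Kcnn2 (SK2), which makes the afterhyperpolarisation, averaged 8.59 ± 0.21 in WT sham cord, then 7.22 ± 0.26, 7.47 ± 0.85 and 7.75 ± 0.23, and 8.65 ± 0.03 in KO sham cord, then 7.39 ± 0.19, 7.47 ± 0.81 and 8.15 ± 0.24. No injured array overlapped with sham. It fell in WT cord at each time, at -1.37 ± 0.30, -1.12 ± 0.32 and -0.85 ± 0.32. In KO cord it fell at days 1 and 3, at -1.26 ± 0.32 and -1.18 ± 0.30, and its day 7 difference of -0.50 ± 0.32 did not pass.

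Kcnt2 (Slick) and Kcnt1 (Slack), the sodium-activated channels, both fell at day 3 in both genotypes. They differed in their calls at day 1 and in KO cord at day 7. Kcnt2 read 8.0, 8.10, 8.05 and 8.24 on the WT sham arrays, 6.18, 7.27, 6.94, 5.58 and 6.89 at day 1, 7.13, 7.09, 7.02 and 6.96 at day 3, then 6.96, 6.91, 7.17 and 7.17 at day 7. The KO arrays read 8.32, 7.89, 8.22 and 7.87 in sham cord, 6.64, 7.08, 6.26 and 6.68 at day 1, 7.17, 7.01, 6.33, 6.68 and 7.05 at day 3, then 7.47, 7.72, 7.56 and 7.45 at day 7. All injured arrays lay below the sham arrays of their genotype, and the lowest array of each genotype was of day 1. Its differences were -1.53 ± 0.22, -1.05 ± 0.23 and -1.05 ± 0.23 in WT cord and -1.41 ± 0.23, -1.23 ± 0.22 and -0.53 ± 0.23 in KO cord, the last not past the threshold. Kcnt1 differed by -0.46 ± 0.22 and -0.20 ± 0.23 at day 1, which did not pass, and by -1.16 ± 0.23 and -1.18 ± 0.22 at day 3, in WT and KO cord. Another Kcnt1 probe set missed in WT cord at day 3, at -0.57 ± 0.27 (adjusted p = 0.0649 in limma). It passed in KO cord at day 3, at -0.73 ± 0.25, and a further probe set passed in both genotypes. Kcnq1ot1, a long non-coding RNA from the Kcnq1 locus and no channel, passed at days 3 and 7 in both genotypes, at -0.48 to -0.38.

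The falls did not all come on the same day. Of the 39 genes that fell at day 3 in both genotypes, 10 had fallen at day 1 in neither. These were Kcna1, Kcnab2, Kcnab3, Kcng4, Kcnh1, Kcnj14, Kcnk13, Kcnk3, Kcnq1ot1 and Kcnt1. The class holds for the chosen probe sets. Another probe set fell at day 1 for Kcnab2 in both genotypes, for Kcnh1 in WT cord, at -0.67 ± 0.22 (adjusted p = 0.0122), and for Kcnq1ot1 in WT cord, where 1 of 4 others passed at -0.27 ± 0.10 (adjusted p = 0.0182). A further 13 had fallen at day 1 in both genotypes and did not pass between days 3 and 1, namely Kcnc4, Kcnd2, Kcnh8, Kcnip2, Kcnj12, Kcnj9, Kcnk2, Kcnmb2, Kcnn2, Kcnq3, Kcns2, Kcnt2 and Kcnu1. Another 10 had fallen at day 1 in both and were lower still at day 3, among them Kcna2, Kcnc1, Kcnip4, Kcnj3 and Kcns3. These classes rest on calls, and a p that misses the threshold does not show that a gene was level. The neuron markers divide as well, with Syt1 at -1.51 ± 0.29 and Gad1 at -1.13 ± 0.23 in WT cord at day 1, and the neurofilament genes Nefl, Nefm and Nefh at -0.12 ± 0.09, -0.13 ± 0.15 and -0.08 ± 0.16.

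**Figure D4:**
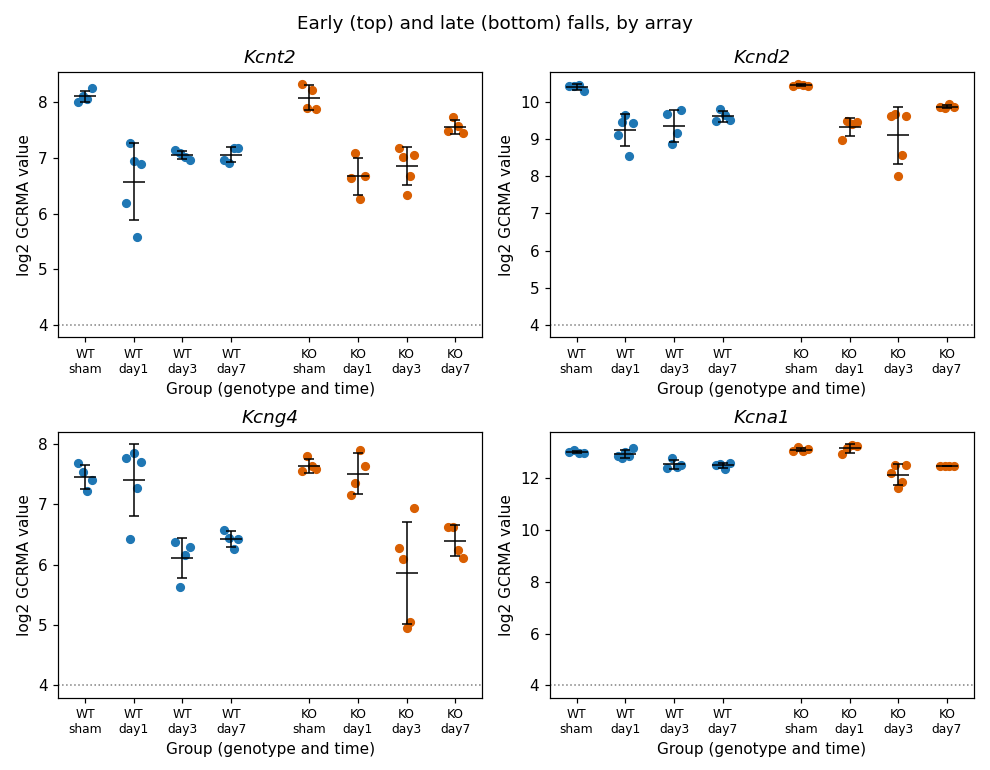
Log2 GCRMA values on every array (points) by genotype and time, with group mean and SD (black), for Kcnt2 and Kcnd2 (top) and Kcng4 and Kcna1 (bottom); the dotted line is the limit of log2 4. The top genes are below sham on every day 1 array, and the bottom genes overlap with sham at day 1 and lie below it at days 3 and 7.

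The test of the days against each other, as the mean over both genotypes, gave 26 channel genes lower and 4 higher at day 3 than at day 1, where 34.3% of all genes were lower and 26.1% higher. The median difference was -0.27 for the channel genes and -0.05 for all genes. The largest falls were of Kcng4 (-1.47 ± 0.21), Kcnj14 (-1.11 ± 0.23), Kcnab1 (-0.95 ± 0.16) and Kcnc1 (-0.88 ± 0.16). Kcnk6 (1.72 ± 0.14), Kcnn4 (1.47 ± 0.26), Kcne1l (0.81 ± 0.19) and Kcna5 (0.45 ± 0.17) were higher. The call of Kcna5 (adjusted p = 0.0258) was lost without any 1 of WT day 1 replicate 4, KO day 1 replicate 3, WT day 3 replicate 4 and KO day 3 replicate 2, at adjusted p = 0.0603, 0.0614, 0.0707 and 0.0542. It was also lost with the skeletal muscle mean as a covariate (adjusted p = 0.105), with the compared groups alone (0.0774) and with values under log2 4 set to 4 (0.0535).

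From day 3 to day 7, 19 channel genes rose and 1, Kcnj8, fell, where 24.8% of all genes rose and 21.3% fell. Apart from Kcne1l, the largest rises were of Kcnj3 (0.74 ± 0.20), Kcnip4 (0.72 ± 0.14) and Kcnj14 (0.72 ± 0.23). Of the 19, Kcne1l and Kcnk6 had risen after injury, and the other 17, among them Kcna2, Kcnc1, Kcnd2, Kcnh2, Kcnq3, Kcnq5, Kcns2 and Kcns3, had fallen at day 3 in both genotypes. The rises hold for the chosen probe sets. The others of Kcna2, Kcnd2 and Kcnip4 rose too, those of Kcnj3 were split, and none of Kcna6, Kcnab1, Kcnc1 or Kcnk1 passed. Of 12 neuron markers, 8 rose over the same days, with a median of 0.30, against 0.29 for the channel genes. Without KO day 3 replicates 3 and 4, the arrays lowest in neuron markers, 11 genes rose, and the call of Kcnj14 was lost (0.54, adjusted p = 0.075). Without WT day 3 replicate 2, 13 rose and 3 fell.

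No channel gene passed between the genotypes. In KO against WT cord, 0 of 52 passed in limma at sham and at days 1, 3 and 7, where 0.0667%, 0.859%, 0.0334% and 0.0334% of all genes did, with 5, 3, 7 and 5 channel genes at an unadjusted p under 0.05. Those are 9.62%, 5.77%, 13.5% and 9.62% of the 52, where 4.1%, 9.7%, 11.5% and 4.8% of all genes had such a p. A response to injury that differed between genotypes was called for 0 of 52 at each day, against 0.142%, 0% and 0.00834% of all genes, with 6 channel genes at an unadjusted p under 0.05 each time. That is 11.5% of the 52, where 6.34%, 7% and 3.29% of all genes had such a p. The nearest to the threshold was Kcna5 at day 1, higher in KO by 0.88 ± 0.25 (adjusted p = 0.0966), with overlapping arrays. It passed without WT day 1 replicate 2 (1.07, adjusted p = 0.0317) or without replicate 3 (1.06, adjusted p = 0.0315).

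The members with the smallest p in each comparison are given as values. In sham cord they were Kcnk6 (-0.62 ± 0.20), Kcnh8 (-0.56 ± 0.21) and Kcnmb4 (0.28 ± 0.12). At day 1, Kcnc4 (0.31 ± 0.14) and Kcnk1 (0.32 ± 0.15) followed Kcna5. At day 3 they were Kcna1 (-0.40 ± 0.13), Kcnh1 (-0.71 ± 0.26) and Kcnmb4 (-0.27 ± 0.11), and at day 7 Kcna4 (0.79 ± 0.28), Kcnmb2 (0.48 ± 0.20) and Kcnk2 (0.34 ± 0.16). The injury response of Kcnk6 differed between genotypes by 1.06 ± 0.28 at day 3 (adjusted p = 0.482), that of Kcnn4 by 1.53 ± 0.54 and that of Kcnmb4 by -0.55 ± 0.16. The value of Kcnn4 rests on sham arrays partly under log2 4, and with values under that limit set to it was 1.02 (adjusted p = 0.729). At day 1, the response differences were 0.78 ± 0.28 for Kcnk6, 0.93 ± 0.36 for Kcna5 and 0.47 ± 0.19 for Kcnu1 and at day 7 0.96 ± 0.30 for Kcnh8, 1.15 ± 0.40 for Kcna4 and 0.75 ± 0.28 for Kcnmb2. The day 7 response difference of Kcnh8 passed with values under log2 4 set to 4 (0.64, adjusted p = 0.0209), with the compared groups alone (0.96, adjusted p = 0.0493) and with a caudal Hox term in the fit (1.28, adjusted p = 0.0448). The first of these settings puts nearly all injured Kcnh8 arrays at the same value. That narrows the pooled spread, so the pass with it adds no support. At day 7, 9 genes were higher and 1 lower in KO cord with no overlap between the genotypes' arrays, where 5.24% and 3.49% of all genes were. In sham cord 1 was higher and 2 lower without overlap, where 3.02% and 2.05% of all genes were. None of the 52 was at day 1, where 2.18% and 2.83% of all genes were, or at day 3, where 0.425% and 0.367% were.

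The sham groups differ in the caudal Hox mean, as given above. With that mean as a covariate, 17 channel genes were lower in KO than in WT sham cord, 15 had a higher response difference at day 1 and 6 at day 7. In the same fit 6.14% of all genes were lower between the sham groups, and 7.33% and 1.69% had a higher response difference at days 1 and 7. With values under log2 4 set to 4, Kcnh8 passed between the sham groups (-0.56, adjusted p = 0.000217), as it did with the Hox covariate (-0.98, adjusted p = 0.0449). All sham arrays of Kcnh8 read above log2 4, so the first of these settings left their difference unchanged. It put every injured array but 1, of KO day 7, at the same value. That narrows the spread pooled over the groups, so the pass with that setting adds no support. The sham groups do not overlap in the Hox mean, so cord level and genotype cannot be told apart there. WT cord at days 1 and 7 and KO cord at days 3 and 7 do not overlap with sham in it either. Cord level and injury cannot be told apart in those comparisons.

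Other genes that act with potassium channels were taken from a list of 25, of which 16 were tested. In WT cord 10, 15 and 12 fell at days 1, 3 and 7, and in KO cord 7, 15 and 14. The Kv4 partners Dpp6 and Dpp10 differed by -1.29 ± 0.25 and -1.72 ± 0.27 in WT cord at day 3. Cntnap2, which holds Kv1 channels beside the node, differed by -1.30 ± 0.26 in WT and -1.83 ± 0.24 in KO cord at day 3. Lgi1, a secreted ligand of the Kv1 complex, was lowest early, at -1.37 ± 0.28 in WT cord at day 1, and -0.39 ± 0.29 at day 7 did not pass. Abcc8, the sulfonylurea receptor of Kir6.2 channels, fell in all 6 comparisons, at -1.51 ± 0.16 in KO cord at day 3. Abcc9 was the sole gene of the list to rise, at day 3 in both genotypes.

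Of 19 listed subunits of the sodium-potassium pump and potassium-coupled transporters, which move potassium across the membrane, 14 were tested. In WT cord 3, 6 and 6 rose and 8, 5 and 3 fell at days 1, 3 and 7, and in KO cord 3, 6 and 6 rose and 6, 5 and 3 fell. The pump regulator Fxyd5 rose by 3.21 ± 0.35, 4.01 ± 0.37 and 3.53 ± 0.37 in WT cord and Fxyd3 by 4.0 ± 0.35, 2.92 ± 0.37 and 2.03 ± 0.37. The cotransporter Slc12a4 rose at each time in both genotypes, while the neuronal cotransporter Slc12a5 differed by -0.73 ± 0.21, -1.20 ± 0.22 and -0.94 ± 0.22 in WT cord. The pump subunit Atp1b1 fell in all 6. Kcnj10 (Kir4.1), the main astrocyte channel, fell at day 1 and passed at no other time, at -0.40 ± 0.16 in WT and -0.44 ± 0.17 in KO cord.

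Where a second probe set could be compared, none passed in the other direction. Of the tested genes, 18 had another probe set above the limit, which gave 186 pairs over the 6 injury comparisons. The chosen probe set passed in 143 of them, and the other passed the same way in 117 and the other way in 0. Between days there were 62 pairs, the chosen probe set passed in 37, and the other passed the same way in 24 and the other way in 0. An uncalled second probe set had the opposite sign in 1 of the 143, for Kcnma1, and in 2 of the 37, for Kcnma1 and Kcnc1. Of the 83 genes, 37 had 1 probe set, Kcnk6, Kcne1l, Kcnj8 and Kcne4 among them, so those rises have no second reading. Kcnn4 had 2 probe sets, but 1 alone was above the limit, so its rise has no second reading either. Exact repeats of 1 value on 8 or more arrays occurred in 7 tested members, Kcnab3, Kcnd1, Kcnip3, Kcnj11, Kcnj12, Kcnj13 and Kcnk10.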

How the data were processed

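Each array gave values for 45101 probe sets of mouse spinal cord RNA. The deposited values are log2 intensities that the authors normalised with GCRMA, per the submitters' processing notes, with no version given in the sources used here. They ran from 2.17 to 15.9, array medians lay between 4.138 and 4.391, and no 2 arrays were identical. Probe sets with 1 gene symbol in the platform annotation were used (34945), and 932 with several symbols were left out. The number of arrays limits the precision. Of 18193 genes, the 11993 that read above log2 4 on 4 arrays or more were tested. Means of 8 groups were fitted with lmFit and eBayes of limma 3.58.1 (R 4.3.3), and Benjamini-Hochberg adjustment ran over all tested genes. The fit was tested on simulated data.

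Members and gene lists were chosen with earlier results of these data known. Members were named, with array values or group means, by a rule that took the 6 largest passing differences of each injury comparison, members that passed upward by at least 0.5, the 3 smallest p of each genotype comparison, and the 4 largest rises and falls between days. Other members, named to account for each family, were chosen after their values were seen. Alternatives were the mean over probe sets, no filter, values under log2 4 set to 4, arrays centred on the median, the compared groups alone, the replicate number as a block, and each array left out. After seeing the data, the caudal Hox mean and the skeletal muscle mean as covariates, leaving out both KO day 3 arrays lowest in neuron markers, and counting members with a mean above log2 4 were added. Promoter windows came from RefSeq's table of GRCm38.p6.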

Additional observations from a re-analysis of the deposited data

Results flagged for a closer look

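Among 144 combinations of a named gene and a group, 8 held 1 array that stood apart from the rest by Dixon's gap criterion, where chance gives about 1 in 20. The low arrays were WT day 3 replicate 3 in Kcns2, at 4.33 against 4.80 on the others, and KO sham replicate 1 in Kcnn4, at 2.99 against 3.21. In both groups the other arrays read the same value, so even a small gap would meet the criterion. The chance rate does not hold for such ties, and the Kcnn4 values there are all under log2 4. Kcnj9 read 3.50 on WT day 7 replicate 1 against 4.90 to 5.09, and Kcnip4 read 8.75 on KO day 7 replicate 1 against 8.91 to 8.93. The high arrays were KO day 3 replicate 4 in Kcne4, at 4.50 against 4.33 to 4.37, and WT day 3 replicate 4 in Kcnc2, at 8.60 against 8.14 to 8.22. Kcne1l read 4.15 on KO day 1 replicate 3 against 3.81 to 3.87, and 8.40 on WT day 7 replicate 2 against 8.05 to 8.10.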

How the results depend on the processing

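No named gene changed direction past the threshold under any alternative run. Leaving out each array in turn gave 31 to 36, 42 to 45 and 37 to 42 channel genes called in WT cord at days 1, 3 and 7, and 23 to 32, 41 to 44 and 30 to 38 in KO cord. It gave 0 to 1 in KO against WT cord at day 1, 0 in the other genotype comparisons, 28 to 31 between days 3 and 1, and 16 to 23 between days 7 and 3. With values under log2 4 set to 4, 1 gene passed between the sham groups and 1 in the genotype difference of the response at each of days 1, 3 and 7. Between the sham groups and at day 7 the gene was Kcnh8, where that setting narrows the spread, as given above. With a term for the caudal Hox mean, 17 passed between the sham groups, 15 and 6 in the response difference at days 1 and 7, and 9 between days 7 and 3. With the compared groups alone, 1 passed in the day 7 response difference and 13 between days 7 and 3. The latter count was 13 with the skeletal muscle mean as a covariate and 12 without both KO day 3 arrays lowest in neuron markers. The cause was not tested. With the replicate block the counts were 35, 44 and 42 in WT cord, 29, 42 and 37 in KO cord, 0 in each genotype comparison, 30 between days 3 and 1, and 26 between days 7 and 3. Arrays with the same number did not deviate together (median correlation 0.00439 over 113 pairs, -0.0147 over 392 other pairs), so the numbers were not taken as pairs. Kcne4 in WT cord at day 3 lost its call with the compared groups alone (adjusted p = 0.0982 in limma), and Kcne1l in KO cord at day 3 with the replicate block (0.55, adjusted p = 0.0753). Signal over background limits the 7 members with repeated values and those near log2 4.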
